A study of Mus musculus with 6 samples.

Results

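The 9 genes described here encode transcription factors that set the identity of dendritic cells (DCs) and macrophages, namely Irf4, Irf8, Batf3, Zbtb46, Spi1, Id2, Klf4, Zeb2 and Nfil3. They were taken from a list of gene symbols and matched to 9 of the 56748 Ensembl IDs in the count files. Their mRNA levels were compared between bone marrow-derived dendritic cells (BMDCs) of WT mice and of mice lacking Nfkb2 globally (Nfkb2-/-), with 3 libraries per genotype and 6 in all. Marrow cells of both genotypes were grown for 9 days, with 20 ng/mL GM-CSF alone for 5 days and with 10 ng/mL IL-4 added for the last 4 days according to the sample labels, and were not stimulated further. Per the methods of the study the non-adherent cells were collected. The labels give neither age nor sex of the mice and mention no pooling, and the deletion covers the progenitors as well as the DCs grown from them. Nfkb2 encodes p100, the precursor of the NF-κB subunit p52, which pairs with RelB in the noncanonical NF-κB pathway.

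Transcription factors divide the work of DC development. PU.1, the product of Spi1, opens the myeloid program. Zbtb46 marks conventional DCs among myeloid cells, Irf8 with Batf3, Id2 and Nfil3 is required for type 1 conventional DCs (cDC1), and Irf4, Klf4 and Zeb2 are tied to type 2 conventional DCs (cDC2), with Klf4 and Zeb2 also acting in monocytes and macrophages. Cultures with GM-CSF and IL-4 yield cells that resemble monocyte-derived DCs, in which Irf4 is the prominent interferon regulatory factor.

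Of the 9 factors, Irf8 differed most between the genotypes, with mRNA 3.85-fold lower in Nfkb2-/- than in WT BMDCs, while the libraries overlapped for Irf4 (1.10-fold higher by the estimate). Zbtb46 and Nfil3 were also below WT, and Spi1 above WT, in every Nfkb2-/- library. None of the 9 was differentially expressed in edgeR's quasi-likelihood test over 21849 genes, for which a p-value adjusted to under 0.05 had to go with more than 1.2-fold change, where 1.14% of the genes did, 0.453% higher and 0.682% lower in Nfkb2-/- BMDCs. Before adjustment p was under 0.05 for 4 of the 9, Irf8, Zbtb46, Spi1 and Nfil3, against 17.1% of all genes tested. DESeq2, the tool of the study's methods, called 1 of the 9, Irf8, and 8.6% of the genes tested, and limma voom called 0 of the 9 and 2.23% of the genes.

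The 6 libraries held 29863927 to 55623068 counts. Nfkb2 itself measured 154 to 355 CPM in WT (TMM-normalized counts scaled to a common library size) and 32.3 to 44.8 CPM in Nfkb2-/- libraries, lower by a log2 difference (Nfkb2-/- minus WT) of -2.72 ± 0.33 (standard error, SE, edgeR adjusted p = 0.0307), and passed the threshold in 9 of 14 alternative fits. Nfkb2-/- replicate 1 stood apart by its number of detected Ensembl IDs, 47952, where the other libraries had 27692 to 33841. WT replicate 3 stood apart by its macrophage markers, whose summed level over 13 genes was 478 CPM, against 4777 and 5255 CPM in WT replicates 1 and 2 and 2286 to 3432 CPM in the Nfkb2-/- libraries. Values without these libraries are given below where they change a result. In RNA of whole cultures, fewer cells of a type and less RNA per cell cannot be told apart.

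The start regions of the 2 interferon regulatory factors, and of Nfil3 as a second factor below WT, are shown because Irf8 and Nfil3 lay below WT in every Nfkb2-/- library and Irf4 did not. Each window runs from 250 bases before to 50 bases after the RefSeq start site (GRCm38.p6), 5′ to 3′ on the strand of the gene, with matches on either strand to κB-like letters (GGG, any 5 bases, CC) in capitals. They are Irf8 at chr8:120736108-120736407 on the plus strand, Irf4 at chr13:30748983-30749282 on the plus strand and Nfil3 at chr13:52980990-52981289 on the minus strand.
Irf8: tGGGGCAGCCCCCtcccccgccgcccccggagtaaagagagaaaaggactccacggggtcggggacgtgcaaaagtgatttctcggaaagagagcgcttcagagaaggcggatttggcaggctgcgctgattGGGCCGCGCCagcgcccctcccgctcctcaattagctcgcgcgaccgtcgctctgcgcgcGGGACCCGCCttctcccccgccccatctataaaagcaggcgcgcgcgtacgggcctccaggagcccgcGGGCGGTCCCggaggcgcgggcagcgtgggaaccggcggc
Irf4: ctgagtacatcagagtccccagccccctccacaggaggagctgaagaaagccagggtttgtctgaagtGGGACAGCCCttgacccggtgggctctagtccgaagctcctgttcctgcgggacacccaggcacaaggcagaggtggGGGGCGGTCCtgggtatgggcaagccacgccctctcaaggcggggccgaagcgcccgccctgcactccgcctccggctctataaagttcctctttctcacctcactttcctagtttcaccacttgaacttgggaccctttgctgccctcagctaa
Nfil3: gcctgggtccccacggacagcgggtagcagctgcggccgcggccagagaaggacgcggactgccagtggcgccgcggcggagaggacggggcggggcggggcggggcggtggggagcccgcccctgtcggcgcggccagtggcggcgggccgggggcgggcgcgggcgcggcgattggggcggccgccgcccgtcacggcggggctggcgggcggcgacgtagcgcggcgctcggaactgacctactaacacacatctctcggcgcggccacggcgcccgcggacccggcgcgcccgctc
The letters began at 6 positions in the Irf8 window, some of them overlapping one another, at 2 positions in the Irf4 window and at none in the Nfil3 window. A RefSeq start was matched for 8 of the 9 factors, and 4 of these 8 windows, those of Irf4, Irf8, Batf3 and Klf4, held the letters. Of all 32851 windows of this length, 50.8% held them. The letters of an interferon-stimulated response element (GAAA, any 2 bases, GAAA) were found in 0 of the 8 windows and 3.44% of all windows, and the PU.1-like letters GAGGAAGT in 0 of the 8 and 3.20% of all. The windows were rich in G and C, with 70.0% in Irf8, 61.0% in Irf4 and 81.7% in Nfil3. For Zbtb46 the RefSeq start lay 35038 bases inside the gene as annotated in GENCODE M21.

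Irf8 (ENSMUSG00000041515, GRCm38 chr8:120736358-120756694, plus strand) encodes the factor without which cDC1 do not form and which also directs monocyte precursors. For replicates 1 to 3 its level was 379, 173 and 540 CPM in WT, and 93.3, 84.0 and 106.8 CPM in Nfkb2-/- BMDCs. Every Nfkb2-/- library lay below every WT library, and the WT libraries differed 3.12-fold among themselves against 1.27-fold among the Nfkb2-/- libraries. On average this was 364 ± 184 CPM in WT and 94.7 ± 11.5 CPM in Nfkb2-/- BMDCs (SD, n = 3 each). The log2 difference was -1.94 ± 0.39 (SE, edgeR adjusted p = 0.0660). With 1 library left out the log2 difference ran from -2.28 to -1.54 and the adjusted p-value from 0.00707, without WT replicate 2, to 0.271, without Nfkb2-/- replicate 2 (edgeR). It was -1.94 (adjusted p = 0.131) without Nfkb2-/- replicate 1 and -1.54 (adjusted p = 0.0845) without WT replicate 3. DESeq2 gave an adjusted p of 3.75e-05 and limma voom one of 0.0520.

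Irf4 (ENSMUSG00000021356, GRCm38 chr13:30749226-30766976, plus strand) supports cDC2 and the DCs of GM-CSF cultures, where it promotes antigen presentation on MHC class II. Its level in WT was 808, 710 and 1338 CPM, and in Nfkb2-/- BMDCs 1020, 1099 and 1020 CPM. The 3 Nfkb2-/- values lay between WT replicates 1 and 3. The log2 difference was 0.14 ± 0.26 (SE, edgeR adjusted p = 0.825). It ran from -0.036 without WT replicate 2 to 0.47 without WT replicate 3, with adjusted p-values of 0.953 and 0.214 (edgeR), so that its sign depended on 1 library.

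The ratio of Irf8 to Irf4 within a library depends neither on library size nor on gene length when libraries are compared. In WT its log2 value was -1.09, -2.04 and -1.31, and in Nfkb2-/- BMDCs -3.45, -3.71 and -3.26, for replicates 1 to 3. The genotypes did not overlap. The difference of the means was -1.99 on the log2 scale, or 3.98-fold, from -1.48 ± 0.50 (SD, n = 3) in WT to -3.47 ± 0.23 (SD, n = 3) in Nfkb2-/- BMDCs (two-sided exact permutation p = 0.1, which is the minimum for 3 against 3 libraries, and 0.4 adjusted over 4 ratios). Leaving out any 1 library kept it between -2.27 and -1.80. The spread of this ratio among the WT libraries was smaller than that of the other ratios below.

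**Figure D1:**
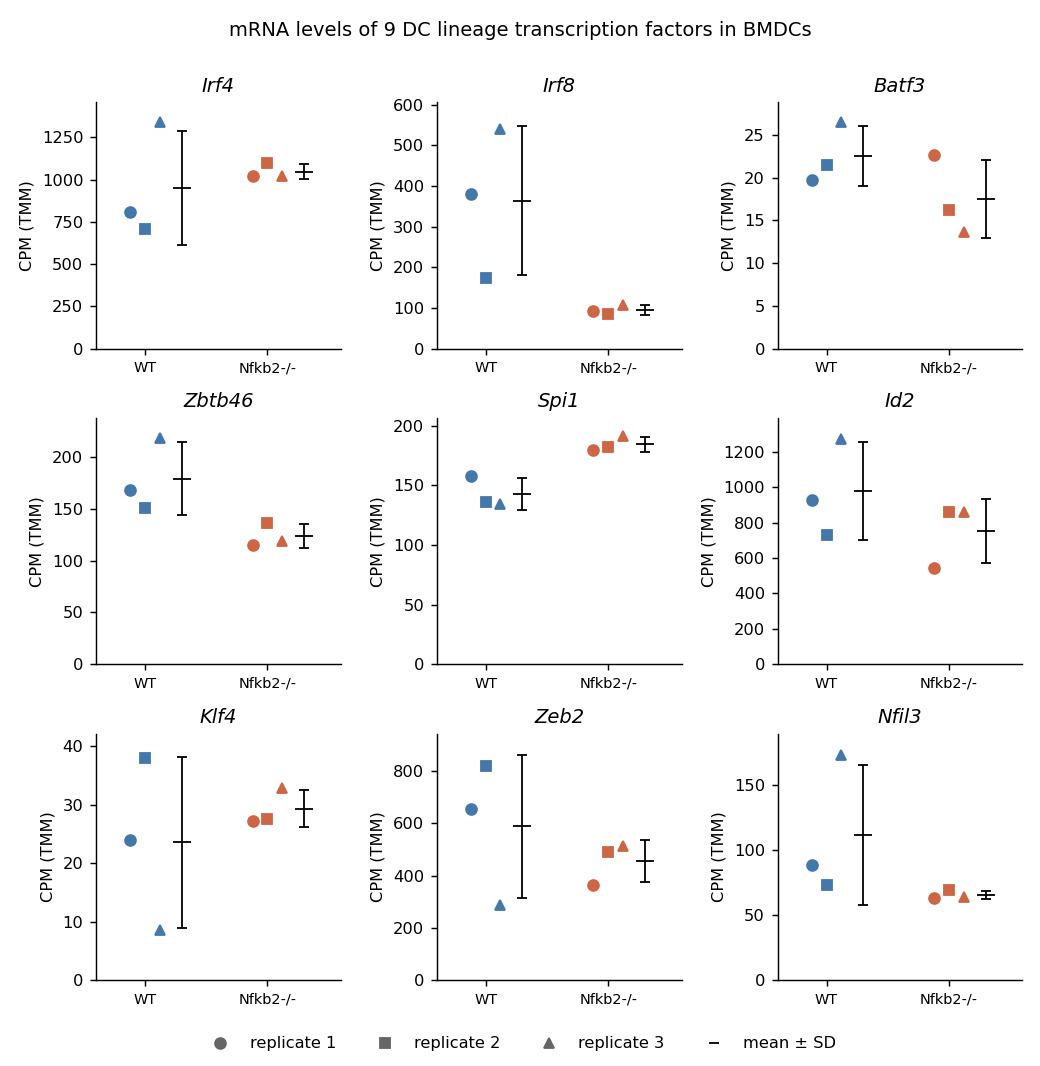
Levels of the 9 factors in CPM (TMM-normalized, linear axes from 0) in 3 WT (blue) and 3 Nfkb2-/- (orange) libraries, with marker shape for the replicate number and black bars for the mean ± SD. Irf8, Zbtb46 and Nfil3 lay lower and Spi1 higher in all 3 Nfkb2-/- libraries, and WT replicate 3 (triangle) held the highest value of 6 factors and the lowest of Klf4, Zeb2 and Spi1.

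Of the other factors required for cDC1, Nfil3 lay below WT in all Nfkb2-/- libraries, while Batf3 and Id2 overlapped. Nfil3 (ENSMUSG00000056749, GRCm38 chr13:52967209-52981073, minus strand), a basic leucine zipper protein that acts upstream of Zeb2 and Id2 in cDC1 commitment, measured 88.1, 73.3 and 172 CPM in WT and 62.8, 68.8 and 63.9 CPM in Nfkb2-/- libraries. WT replicate 3 was 2.35-fold above WT replicate 2, whereas the Nfkb2-/- libraries lay within 1.10-fold of each other. The log2 difference was -0.77 ± 0.31 (SE, edgeR adjusted p = 0.267), and -0.31 without WT replicate 3 (edgeR adjusted p = 0.384). Batf3 (ENSMUSG00000026630, chr1:191097847-191108945, plus strand), the partner of Irf8 at composite sites in cDC1, was one of the 2 least abundant members in CPM, at 19.7, 21.5 and 26.5 CPM in WT and 22.6, 16.2 and 13.6 CPM in Nfkb2-/- libraries. Nfkb2-/- replicate 1 lay inside the WT range and the other two below it. Its log2 difference was -0.37 ± 0.23 (SE, edgeR adjusted p = 0.467), and -0.60 without Nfkb2-/- replicate 1 (edgeR adjusted p = 0.173). Id2 (ENSMUSG00000020644, chr12:25093799-25097140, minus strand), an inhibitor of E proteins and thereby of the plasmacytoid DC fate, measured 928, 731 and 1274 CPM in WT and 543, 858 and 859 CPM in Nfkb2-/- libraries. WT replicate 2 lay below 2 of the 3 Nfkb2-/- libraries. Its log2 difference was -0.38 ± 0.28 (SE, edgeR adjusted p = 0.530). It was -0.14 without WT replicate 3 and -0.20 without Nfkb2-/- replicate 1 (edgeR adjusted p = 0.839 and 0.692).

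Zbtb46 (ENSMUSG00000027583, chr2:181387762-181459426, minus strand), a zinc finger repressor expressed by conventional DCs and their committed precursors, measured 168, 151 and 218 CPM in WT and 115, 136 and 119 CPM in Nfkb2-/- libraries. The highest Nfkb2-/- library was below the lowest WT library. The means were 179 ± 35.2 CPM and 123 ± 11.4 CPM (SD, n = 3 each), with a log2 difference of -0.54 ± 0.18 (SE, edgeR adjusted p = 0.192). The estimate ran from -0.65 to -0.37 with 1 library left out, and its adjusted p-value from 0.0755 with DESeq2 to 0.473 with a filter of only 1 count in edgeR, the range over all 14 alternatives. Spi1 (ENSMUSG00000002111, chr2:91082390-91115756, plus strand) was the 1 member with higher levels and no overlap, at 158, 136 and 135 CPM in WT and 180, 182 and 191 CPM in Nfkb2-/- libraries. Its values had the smallest spread of the 9 factors in both genotypes, with a coefficient of variation of 9.16% in WT and 3.41% in Nfkb2-/- BMDCs. The log2 difference was 0.37 ± 0.14 (SE, edgeR adjusted p = 0.232), and its adjusted p-value was at least 0.116 in every alternative.

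Klf4 and Zeb2, which act in monocytes, macrophages and part of the cDC2, overlapped between the genotypes. Klf4 (ENSMUSG00000003032, chr4:55527143-55532466, minus strand) measured 24.0, 38.0 and 8.64 CPM in WT, a 4.40-fold range, and 27.3, 27.6 and 32.9 CPM in Nfkb2-/- libraries. Its log2 difference was 0.31 ± 0.46 (SE, edgeR adjusted p = 0.765), and -0.076 without WT replicate 3 (edgeR adjusted p = 0.904). Zeb2 (ENSMUSG00000026872, chr2:44983632-45117395, minus strand), a zinc finger homeobox repressor, measured 655, 822 and 289 CPM in WT and 366, 492 and 512 CPM in Nfkb2-/- libraries. The Nfkb2-/- values lay inside the WT range. Its log2 difference was -0.37 ± 0.37 (SE, edgeR adjusted p = 0.649), and -0.69 without WT replicate 3 (edgeR adjusted p = 0.178). Exons of the antisense gene Zeb2os overlap those of Zeb2 by 653 bases on the opposite strand, and because the use of strand in counting is not given in the sources used here, reads of the pair could not be separated. Zeb2os had 70 to 177 counts in a library, against 8407 to 27602 for Zeb2. No other member shared exonic sequence with another gene in GENCODE M21.

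**Figure D2:**
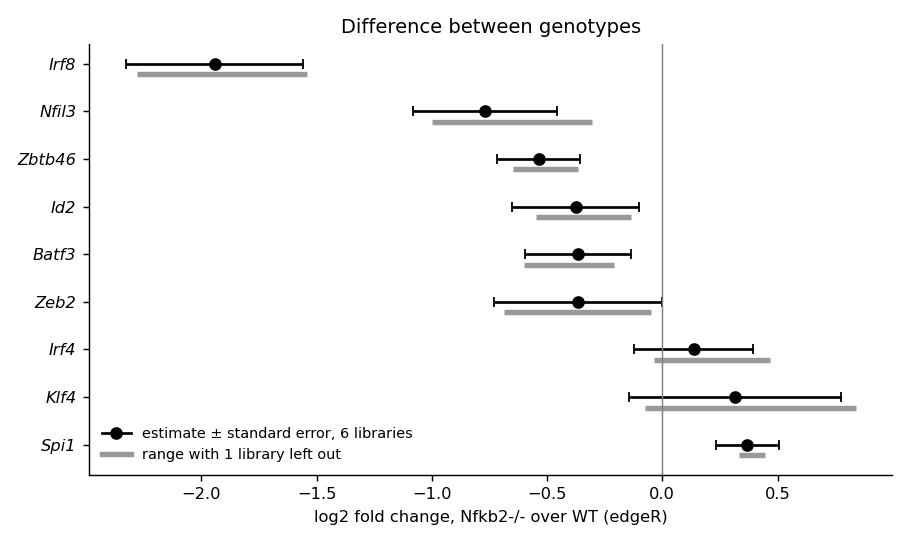
Log2 difference of each factor in Nfkb2-/- over WT BMDCs from edgeR, with its standard error (black, 6 libraries) and the range of the estimate with 1 library left out in turn (grey). Irf8 lies at -1.94, apart from the other 8 factors between -0.77 and 0.37, and the grey bars of Irf4 and Klf4 cross 0.

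Among the 9 factors, 6 had a negative and 3 a positive estimate, with a median log2 difference of -0.37, beside 0.08 over all genes tested. The genotypes did not overlap for 4 of the 9, 3 of them lower and 1 higher in Nfkb2-/- BMDCs. Over all genes tested 24.7% showed no overlap, 12% lower and 12.7% higher. The median of the 9 was -0.24 without Nfkb2-/- replicate 1 and -0.23 without WT replicate 3. Variation was larger among the WT than among the Nfkb2-/- libraries for 8 of the 9 factors, the exception being Batf3, whereas over all genes tested the coefficient of variation was larger in WT for 50.4%. WT replicate 3 held the highest WT value of 6 factors and the lowest of the other 3, and its summed macrophage markers were the lowest of the 6 libraries. The part of that library's composition in the values of the 9 factors was not tested beyond leaving it out. Nfkb2-/- replicate 1, which held the highest value of the 6 libraries for 31.2% of all genes tested, held it for 0 of the 9. That share covers genes of every level, scarce ones included. Nfkb2-/- replicate 1 held the lowest value for 3 of the 9, Zbtb46, Id2 and Nfil3, for which the share over all genes was not counted.

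The other 3 ratios showed wide spread in WT. Those to Zeb2 compare factors with opposed roles in DC commitment. Zbtb46 to Klf4 compares a factor of conventional DCs with one that also acts in monocytes and macrophages. The log2 ratio of Id2 to Zeb2 was 0.50, -0.17 and 2.14 in WT and 0.57, 0.80 and 0.75 in Nfkb2-/- libraries, with a difference of -0.12 (exact permutation p = 1.0). That of Nfil3 to Zeb2 was -2.89, -3.49 and -0.75 in WT and -2.54, -2.84 and -3.002 in Nfkb2-/- libraries, with a difference of -0.42 (exact permutation p = 0.9). For both, the Nfkb2-/- libraries lay inside the WT range and WT replicate 3 was the highest library. Without WT replicate 3 the differences were 0.54 and 0.40, with the opposite sign. The log2 ratio of Zbtb46 to Klf4 was 2.81, 1.99 and 4.66 in WT and 2.08, 2.30 and 1.85 in Nfkb2-/- libraries, with a difference of -1.07 (exact permutation p = 0.3), and of -0.32 without WT replicate 3.

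**Figure D3:**
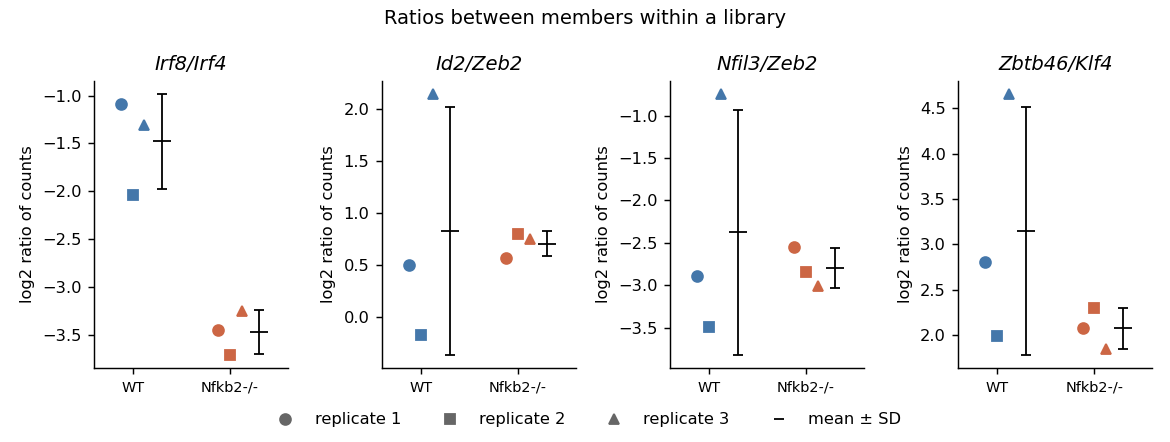
Log2 ratio of the counts of 2 factors within each library (prior count 0.5) in WT (blue) and Nfkb2-/- (orange) BMDCs, with the replicate number by marker shape and the mean ± SD in black; each panel has its own axis. The genotypes separate for Irf8 over Irf4 only, and WT replicate 3 (triangle) is the highest library in the other 3 panels.

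To set levels of different genes side by side, counts were divided by exonic length and scaled to the same total in each library (TPM). On this scale Id2 was the most abundant factor in both genotypes, with means of 1331 TPM in WT and 1034 TPM in Nfkb2-/- BMDCs, and ranked 46 of the 21849 genes tested. Irf4 followed with 641 and 722 TPM and rank 112. Spi1 and Nfil3 came next in WT, at 180 and 179 TPM, with ranges that overlapped, and Irf8 was close to them at 169 TPM, from 91.1 to 227 TPM. In Nfkb2-/- BMDCs Spi1 stood at 231 TPM, Nfil3 at 109 TPM and Irf8 at 45.4 TPM, from 38.6 to 49.2 TPM, which put Irf8 below Zeb2 at 77.0 TPM and among Zbtb46 (49.0 TPM) and Batf3 (37.6 TPM). Klf4 was the least abundant of the 9 at 27.4 and 32.4 TPM. The TPM of Irf8, Zbtb46 and Batf3 in Nfkb2-/- libraries overlapped, and so did those of Batf3 and Klf4. The length used was that of all annotated exons of a gene merged, from 1597 bases for Batf3 to 19942 bases for Zeb2. Any exons not used in these cells would lower the TPM, so the order of the factors is approximate. By CPM, Zeb2 ranked 3 of the 9.

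The members were read beside 2 lists of related factors. Of 23 relatives in the same gene families, 22 were tested, and 1 was differentially expressed, beside 1.14% of all genes tested. Irf1, an interferon-inducible activator, fell from 24.4, 19.4 and 29.9 CPM in WT to 10.7, 10.8 and 11.2 CPM in Nfkb2-/- libraries (log2 difference -1.17 ± 0.19 SE, edgeR adjusted p = 0.0461). The most abundant relatives were Klf6, Irf5, Zeb1 and Irf2. Klf6 measured 1114 to 1552 CPM in WT and 851 to 1070 CPM in Nfkb2-/- libraries (edgeR adjusted p = 0.458). Irf5, a factor of inflammatory cytokine genes, measured 209 to 263 CPM in WT and 370 to 381 CPM in Nfkb2-/- libraries, without overlap (log2 difference 0.62, edgeR adjusted p = 0.104). Zeb1 and Irf2 were lower by estimates of -0.27 and -0.23 on the log2 scale (edgeR adjusted p = 0.438 and 0.495). Of these 22 relatives, 7 (31.8%) did not overlap between the genotypes, 2 higher and 5 lower, beside 24.7% of all genes tested, and their median log2 difference was 0.04. DESeq2 called Irf1, Spic and Irf5, and 8.6% of all genes tested. Without WT replicate 3 Irf1 no longer passed (edgeR adjusted p = 0.0510).

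Of 32 other factors of DC and myeloid development, all were tested and 1 was differentially expressed, beside 1.14% of all genes tested. Prdm1, which encodes the repressor Blimp-1, fell from 51.9, 72.5 and 56.3 CPM in WT to 22.6, 19.1 and 18.9 CPM in Nfkb2-/- libraries (log2 difference -1.57 ± 0.18 SE, edgeR adjusted p = 0.0278). The most abundant were Etv3, Rbpj, Bhlhe40 and Etv6. Etv3 and Etv6, repressors of the ETS family, lay below WT without overlap, by -0.44 and -0.57 on the log2 scale (edgeR adjusted p = 0.265 and 0.185). Rbpj, the nuclear mediator of Notch signaling, had a log2 difference of 0.89 with overlapping libraries (adjusted p = 0.215), and Bhlhe40 one of -0.05 (edgeR adjusted p = 0.885). The genotypes did not overlap for 8 of the 32 (25.0%), beside 24.7% of all genes tested. The median log2 difference was 0.26, and -0.0055 without WT replicate 3. DESeq2 called Gata2, Maf, Mycl and Prdm1, and edgeR without WT replicate 3 called Maf, Mycl and Prdm1. The calls of Irf1 and Prdm1 rest on all 6 libraries in part, since no gene passed the threshold without WT replicate 1 or without any 1 of the Nfkb2-/- libraries, where 2325 to 4088 genes had an unadjusted p-value under 0.05 (edgeR).

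**Figure D4:**
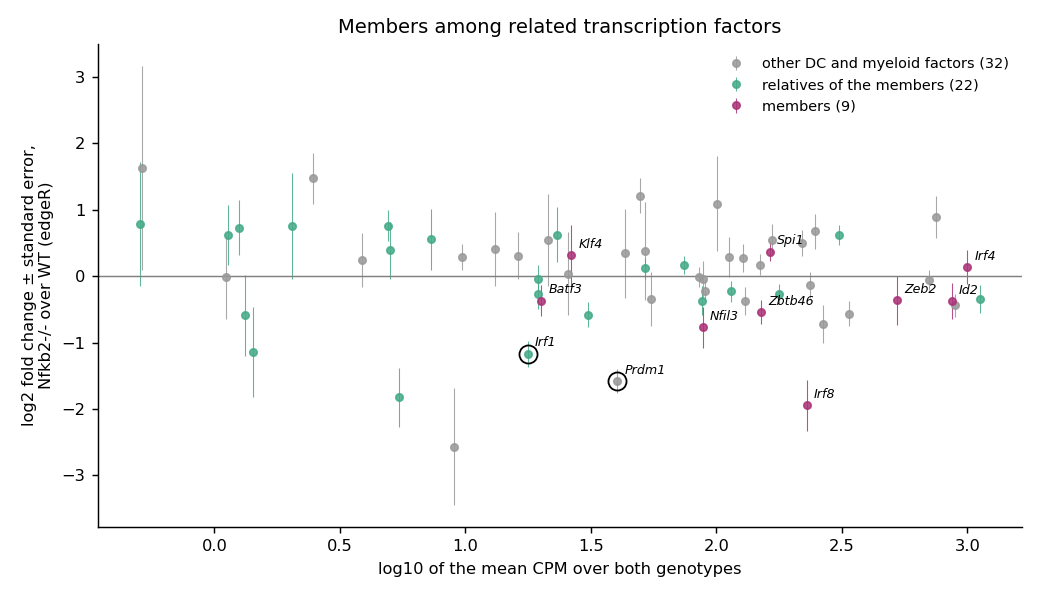
Log2 difference (edgeR, with standard error) against the log10 of the mean CPM for the 9 members, 22 relatives in their gene families and 32 other DC and myeloid factors. Black circles mark the 2 differentially expressed genes, Irf1 and Prdm1, and Irf8, at -1.94, lies lowest of the 9 members.

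Marker lists were used to place the factors in the cultures. General DC genes were present in every library, with a summed level over 9 genes of 4929 to 8535 CPM in WT and 6602 to 7703 CPM in Nfkb2-/- libraries, made up mostly by Cd74, H2-Aa, H2-Ab1 and H2-Eb1 of the MHC class II pathway. None of these 4 passed the threshold (adjusted p from 0.535 to 0.860, edgeR). Itgax, which encodes CD11c, rose from 160, 277 and 123 CPM in WT to 745, 769 and 716 CPM in Nfkb2-/- libraries (log2 difference 1.99 ± 0.30 SE, edgeR adjusted p = 0.0414). Kmo and Btla were also higher without overlap but did not pass (log2 difference 2.58 and 2.84, edgeR adjusted p = 0.132 and 0.0652). Of the 9 general DC genes 3 thus did not overlap, beside 24.7% of all genes tested. DESeq2 called the same 3, and 8.6% of all genes tested. Of the 12 cDC1 genes, those that define the subset were low. Xcr1, with a level of 0 in WT replicate 1, reached at most 0.620 CPM and Cadm1 1.77 CPM in any library. Clec9a, a receptor for dead cells, measured 1.57, 1.75 and 0.964 CPM in WT and 3.31, 5.24 and 2.86 CPM in Nfkb2-/- libraries, without overlap (log2 difference 1.40 ± 0.35 SE, edgeR adjusted p = 0.113). Itgae, which encodes CD103, measured 1.73, 4.46 and 1.86 CPM in WT and 11.3, 7.94 and 11.2 CPM in Nfkb2-/- libraries, also without overlap (log2 difference 1.92 ± 0.40 SE, edgeR adjusted p = 0.0735). The abundant genes of that list, Cd36, Wdfy4, Naaa and Ppt1, are also expressed by other myeloid cells, and the summed cDC1 list, from 239 to 926 CPM in WT and from 1897 to 2270 CPM in Nfkb2-/- libraries, was therefore led by genes that do not define cDC1. None of the 12 passed the threshold in edgeR, and 5 did not overlap, Cd36, Wdfy4, Naaa, Itgae and Clec9a, all higher in Nfkb2-/- BMDCs, beside 12.7% of all genes tested that were higher without overlap. DESeq2 called 4 of the 12 higher, Cd36, Wdfy4, Itgae and Clec9a, beside 8.6% of all genes tested that it called in either direction. Without WT replicate 3, edgeR called Cd36 higher and Rab7b lower in Nfkb2-/- BMDCs. Rab7b measured 31.1 and 25.7 CPM in WT replicates 1 and 2 and 11.9, 14.4 and 11.4 CPM in Nfkb2-/- libraries. Cd36, a fatty acid and lipoprotein receptor, measured 73.8 to 305 CPM in WT and 929 to 1258 CPM in Nfkb2-/- libraries (log2 difference 2.23 ± 0.51 SE, edgeR adjusted p = 0.0908). The 5 genes without overlap lay on the side opposite to Irf8. Of the 12 estimates, 9 were higher and 3 lower in Nfkb2-/- BMDCs, the 3 on the side of Irf8. Without WT replicate 3, 4 were lower.

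Of the 11 genes of cDC2 and of IRF4-linked DCs, 2 were differentially expressed, beside 1.14% of all genes tested. Ccl17, a chemokine of IL-4-exposed DCs that attracts Ccr4-bearing T cells, rose from 161, 361 and 432 CPM in WT to 2385, 2472 and 2357 CPM in Nfkb2-/- libraries (log2 difference 2.92, edgeR adjusted p = 0.0307). Tmem176b fell from 155, 124 and 198 CPM to 45.8, 50.9 and 65.8 CPM (log2 difference -1.55, edgeR adjusted p = 0.0404). Ccl22, Mgl2 and Sirpa, the other abundant genes of the list, differed by -0.50, 2.09 and -0.39 on the log2 scale and did not pass (edgeR adjusted p = 0.404, 0.162 and 0.388). Mgl2 measured 132, 299 and 37.7 CPM in WT and 599, 694 and 703 CPM in Nfkb2-/- libraries. Of the 11 genes, 5 did not overlap, beside 24.7% of all genes tested. Ccl17, Mgl2, Dpp4 and Clec10a were higher and Tmem176b lower in Nfkb2-/- BMDCs. DESeq2 called Ccl17, Dpp4, Mgl2 and Tmem176b, and 8.6% of all genes tested. The summed list measured 7601 to 11960 CPM in WT and 9394 to 9905 CPM in Nfkb2-/- libraries.

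The summed level of mature DC genes ordered the WT libraries as Irf8 did, and so did 6 of the 10 genes one by one. This order was not particular to them. The summed general DC and cDC2 lists also had it, as did 5 of 9 and 3 of 11 of their genes one by one. So did 5 of the 9 members, Irf8 among them, 7 of the 22 relatives and 7 of the 32 other factors. Of the cDC1 genes 2 of 12 had it, and of the macrophage markers 0 of 13. Its share over all genes tested was not counted, so that these counts have no background to be read against. The summed level of the 10 mature DC genes was 5787, 4190 and 8954 CPM in WT and 4020, 4048 and 4001 CPM in Nfkb2-/- libraries. It was lower in each Nfkb2-/- library and highest in WT replicate 3. None of the 10 passed the threshold in edgeR, while DESeq2 called Fscn1 and Cd83, and 8.6% of all genes tested. Of the 10, 4 did not overlap, Fscn1, Cd83 and Cd40 lower and Cd86 higher in Nfkb2-/- BMDCs, beside 24.7% of all genes tested. The median log2 difference was -0.71, and -0.41 without WT replicate 3. Fscn1, which bundles actin in mature DCs, measured 1378, 719 and 1853 CPM in WT and 479, 416 and 515 CPM in Nfkb2-/- libraries (log2 difference -1.49 ± 0.34 SE, edgeR adjusted p = 0.0904). Ccr7, Cacnb3 and Cd83, the other abundant genes of the list, differed by -0.97, -0.77 and -1.12 on the log2 scale (edgeR adjusted p = 0.235, 0.231 and 0.150). The part of DC maturation in the Irf8 difference was not tested.

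Macrophage and monocyte markers overlapped between the genotypes for all but 1 gene, Apoe. Of the 13 genes, 0 passed the threshold in edgeR, 1 had an unadjusted p-value under 0.05, Apoe, which DESeq2 called, and the list had a median log2 difference of -0.04. These values rested on WT replicate 3. Without it the median was -0.53, 11 of the 13 estimates were negative, 6 genes had an unadjusted p-value under 0.05 and Apoe passed the threshold in edgeR. Of all 21341 genes tested without WT replicate 3, 3512 had an unadjusted p-value under 0.05 and 270 passed. C1qb, a complement component, went from -0.12 to -0.61 on the log2 scale and Lyz2 from -0.46 to -0.99 (edgeR adjusted p = 0.210 and 0.123 without that library). Lyz2, Ccr2, Csf1r and C1qb were the most abundant, Lyz2 with 3436, 3407 and 267 CPM in WT and 1234, 2061 and 1867 CPM in Nfkb2-/- libraries. Of the 13 markers, 12 were lowest in WT replicate 3, the exception being Apoe, which was lower in all Nfkb2-/- libraries. Klf4, Zeb2 and Spi1 were also lowest in WT replicate 3, Spi1 only narrowly (135 CPM, beside 136 CPM in WT replicate 2). Markers of other cells were low, with summed levels of 85.4 to 243 CPM for 9 neutrophil genes, 47.2 to 57.7 CPM for 7 mast cell and basophil genes, 147 to 201 CPM for 4 plasmacytoid DC genes (mostly Tcf4, with 134 to 172 CPM), 1.41 to 56.3 CPM for 7 stromal genes, at most 4.58 CPM for 4 lymphoid genes and at most 5.31 CPM for 2 erythroid and megakaryocyte genes. Cpa3, a mast cell protease, was the 1 gene among them that edgeR called (log2 difference -1.84, edgeR adjusted p = 0.0413). The neutrophil sum held genes with estimates in opposite directions. Cxcr2, a chemokine receptor, measured 4.41, 12.0 and 1.31 CPM in WT and 93.1, 91.5 and 65.1 CPM in Nfkb2-/- libraries (log2 difference 3.82 ± 0.71 SE, edgeR adjusted p = 0.0568), whereas the estimates of the granule genes Ngp and Ltf were -1.81 and -1.60 (edgeR adjusted p = 0.147 and 0.209). DESeq2 called these 3 genes and also Gata2, Pacsin1 and Cpa3, and edgeR without WT replicate 3 called Cxcr2, Ngp, Ltf, Pacsin1 and Cpa3. Siglech, which defines plasmacytoid DCs, reached at most 0.664 CPM.

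**Figure D5:**
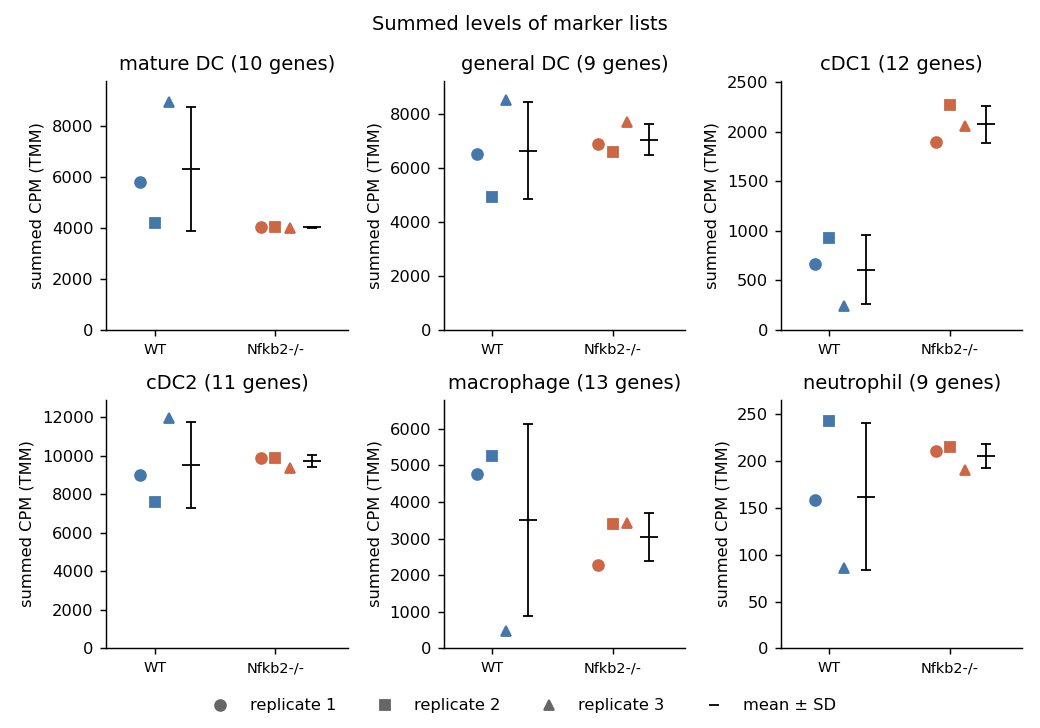
Summed CPM (TMM-normalized, linear axes from 0) of 6 marker lists in WT (blue) and Nfkb2-/- (orange) libraries, with the replicate number by marker shape and the mean ± SD in black. WT replicate 3 (triangle) had the highest mature DC sum, 8954 CPM, and the lowest macrophage sum, 478 CPM.

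For each factor the 2 genes with the most similar pattern over the 6 libraries were sought by Pearson correlation of log2 CPM among the 10637 genes that averaged 5 CPM or more, as a description in which all points share the 2 genotypes and the composition of the libraries. Irf8 was closest to Dnajb12 and Fscn1 (r above 0.999 for both). Nfil3 was closest to Emc8 and Vti1a, and Zbtb46 to Slc25a20 and Agap3. Irf4 was closest to Rnf181 and Samd10, Id2 to Nae1 and Stx12, Klf4 to Hdac4 and Phykpl, Zeb2 to Rab5if and Slc38a9, Spi1 to Ptbp1 and Psma3, and Batf3 to Cdc42bpg and Dlg5, with the lowest values, 0.964 for both. Among the factors themselves, Zbtb46 and Nfil3 (r = 0.944) and Irf8 and Zbtb46 (r = 0.925) were most alike, and Klf4 and Nfil3 (r = -0.939) and Irf4 and Zeb2 (r = -0.928) most opposed. Irf4 and Irf8 had an r of 0.0876 over the 6 libraries, which pools the genotypes and does not describe their pattern within one. Within WT both were highest in replicate 3 and lowest in replicate 2. Among the Nfkb2-/- libraries replicate 2 was highest for Irf4 and lowest for Irf8.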

How the data were processed

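RNA-seq libraries of unstimulated BMDCs, 3 per genotype, were analysed. The authors deposited whole-number read counts per Ensembl gene ID for each library, without normalization. The submitters' processing notes name HISAT2 and the builds GRCm38 and mm10. The counting tool, annotation and use of strand are not given in the sources used here, so that counts of overlapping genes remain uncertain. A further deposited table with all 6 libraries was read only to check that its counts are identical. Names from GENCODE M21 matched 52073 of 56748 IDs. Counts on the other 4675 IDs, 1.01% to 1.75% of a library, stayed out of library sizes and tests.

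By the filters stated in the study, genes with a name and at least 50 counts over the 6 libraries were kept, 21849 in all. This set is larger than the one the study reports, for a reason that was not tested. Shares and adjusted p-values here are over the larger set. The genotypes were compared by glmQLFit and glmQLFTest of edgeR 4.0.16 (R 4.3.3) after TMM normalization, without covariates. DESeq2 1.42.0 and limma 3.58.1 (voom) served as alternatives. Genes counted as differentially expressed when their p-value, adjusted by Benjamini-Hochberg over all genes tested, was under 0.05 and they changed more than 1.2-fold. The standard error was the size of the log2 difference divided by the square root of F. Ratios of counts (prior count 0.5) were compared by exact permutation over libraries. The study describes the libraries as independent biological replicates. Whether each came from its own mouse is not given in the sources used here. At this depth 3 counts, taken as the floor of detection, are 0.0561 to 0.103 CPM.

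The 9 members, the marker and factor lists, and the tests were chosen with earlier results of these data known. Genes named are the 9 members, Nfkb2, called genes and up to 4 of the most abundant of each list, and the 2 genes most alike each member. Xcr1, Clec9a, Itgae, Rab7b, Cadm1, Siglech, Spic, Cd40, Cd86, Apoe, Maf, Mycl and Ltf outside this rule were named after their values were seen. So were Dpp4, Clec10a, Kmo and Btla. In simulated counts of this design (20862 genes), edgeR recovered 80 of the 100 genes with a log2 change of 2 and 95 of the 100 with one of 3, and 10 of its 185 calls were false. The simulation drew each gene independently, with the variation typical of its level. It held no difference in composition between libraries such as that of WT replicate 3. It therefore checks the procedure and does not measure recovery or false calls in these data. Promoter sequences are those of RefSeq (GRCm38.p6). Alternatives were other tools, normalizations, filters and thresholds, the replicate number as a block, and each library left out in turn.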

Additional observations from a re-analysis of the deposited data

How the results depend on the processing

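Of 126 fits of the 9 factors in 14 alternatives each, 120 kept the sign and the side of the threshold, 4 made Irf8 pass and 2 turned the sign of an estimate near 0, Irf4 without WT replicate 2 and Klf4 without WT replicate 3. With 1 library left out, Irf4 ran from -0.036 to 0.47 and Klf4 from -0.076 to 0.84 on the log2 scale. Irf8 was the 1 factor called, so that the count of factors rose from 0 to 1, with DESeq2, with a filter of only 1 count, with at least 10 counts in every library, with an adjusted p-value under 0.1, and without WT replicate 2. With 1 library left out this count ran from 0 to 1. Over all genes, the count of differentially expressed genes rose from 248 to 1878 with DESeq2, 488 with limma voom, 397 with filterByExpr, 1625 with a filter of only 1 count, 459 with at least 10 counts in every library and 808 with an adjusted p-value under 0.1. It ran from 0 to 1248 with 1 library left out. With the replicate number as a block it was 0 in edgeR, where 3331 genes had an unadjusted p-value under 0.05. Deviations of same-numbered libraries from their genotype means correlated at 0.262, 0.148 and 0.0224, and those of different numbers at -0.237 to 0.164. WT replicates 1 and 3 correlated most with their own number. WT replicate 2 correlated slightly more with Nfkb2-/- replicate 3 (0.164). These values do not settle whether same-numbered libraries were paired. The main fit left out the block by replicate number. Under that block the log2 difference of Irf8 was -1.81 (adjusted p = 0.0727, edgeR), and the 4 ratios, as means of differences between same-numbered libraries, kept their values (-1.99 for Irf8 to Irf4, exact sign-flip p = 0.25, the smallest it allows).

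Without WT replicate 3 the ratio differences of Id2 to Zeb2 and of Nfil3 to Zeb2 were 0.54 and 0.40 on the log2 scale, reversed from -0.12 and -0.42. With each library left out they ran from -0.62 to 0.54 and from -0.97 to 0.40. The causes of these changes were not tested. Depth limits only the genes near 3 counts, such as Xcr1. For the ratios the limit is 3 libraries per genotype, with which no permutation test can reach p = 0.05.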
